A study of Homo sapiens with 2 samples.

Results

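The regions described here are 5002 intergenic stretches of open chromatin that were called as peaks in SUM159 cells without guides and had no peak over them in the same cells with guides against ZEB1. They were chosen by 2 readouts of the peak calls, presence in the No gRNA list and absence of any All gRNA peak overlapping by 1 bp, and by position: the summit lay on chromosomes 1 to 22 or X, more than 1000 bp from every GENCODE release 44 transcript start and outside every annotated gene body on hg38. Of the 74757 No gRNA peaks, 67868 lay on these chromosomes, and 16746 of those (24.7%) had no overlapping All gRNA peak. Of the 17360 intergenic No gRNA peaks, 5002 (28.8%) had none, and these are called No gRNA-only intergenic peaks below. The other 12358 are called shared. The All gRNA list held 75217 peaks, and its 5482 intergenic peaks with no overlapping No gRNA peak serve as the opposite set.

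The data are ATAC-seq, in which the transposase Tn5 inserts adapters where DNA is accessible, from SUM159, an established triple negative breast cancer line of mesenchymal character. Both populations were transduced with pLV dCas9-KRAB, a lentiviral vector in which the human ubiquitin C promoter drives a nuclease-dead Cas9 joined to the transcriptional repressor domain KRAB, and were selected with puromycin. The No gRNA population carried the vector without a targeting guide, and the All gRNA population carried it with all 4 guides against the ZEB1 promoter. Both were grown in medium that contained insulin and hydrocortisone. Each group was 1 library, so there was no test between conditions, and every interval below is a 95% interval for counting error only. All 6 mesenchymal marker genes looked at (VIM, FN1, SPARC, CAV1, AXL and ZEB1) had a No gRNA peak within 1000 bp of a start, and of 6 epithelial marker genes EPCAM and CLDN4 had one while CDH1, CLDN3, CLDN7 and ESRP1 had none. Of the 20 mesenchymal genes listed further on, COL5A2, COL6A3, TAGLN and POSTN had no promoter peak in either library.

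ZEB1 is a zinc-finger transcription factor that binds E-box sequences and represses epithelial genes during the epithelial to mesenchymal transition (EMT). Most accessible sites away from promoters are candidate enhancers or insulators, which are bound by sequence-specific factors such as AP-1, TEAD and CTCF and can act on genes over long distances. The nearest gene is therefore a positional label and not necessarily the gene that a site acts on.

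The strongest of these peaks are shown first, by their hg38 sequence (plus strand), the summit with 50 bases on either side. Strength is the −log10 q that the authors' peak caller gave in the No gRNA library. The first 3 are among the 4 strongest of all, the next is the strongest with a match to the CTCF motif (chosen after its values were seen), and the last is the strongest within 1 Mb of the ZEB1 start. Capitals mark a match on either strand to AP-1 (TGACTCA), to the E-box that ZEB1 binds (CAGGTG) or to the CTCF motif. They cover chr5:14908408-14908508, chr13:49859766-49859866, chr17:44587560-44587660, chr11:67659571-67659671 and chr10:30737039-30737139.
near ANKH: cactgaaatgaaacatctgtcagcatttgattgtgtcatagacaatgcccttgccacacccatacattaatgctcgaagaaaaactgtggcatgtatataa
near KPNA3: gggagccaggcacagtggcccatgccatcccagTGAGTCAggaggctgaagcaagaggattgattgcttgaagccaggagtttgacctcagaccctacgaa
near FZD2: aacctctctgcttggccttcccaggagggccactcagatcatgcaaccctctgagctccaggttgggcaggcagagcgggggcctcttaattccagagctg
near ALDH3B2: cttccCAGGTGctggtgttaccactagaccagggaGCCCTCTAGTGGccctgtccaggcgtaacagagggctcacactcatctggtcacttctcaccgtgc
near LYZL2: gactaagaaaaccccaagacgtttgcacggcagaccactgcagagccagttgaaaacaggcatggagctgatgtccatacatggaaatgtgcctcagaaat
The peaks near ANKH and FZD2 held none of these 3 motifs within these bases, and that near KPNA3 held an AP-1 match. The central 31 bases of each of the 5 summits occurred once on chromosomes 1 to 22 and X, counting both strands.

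The peak near ANKH, which encodes a membrane protein needed for pyrophosphate export, was the strongest. It lay at chr5:14908231-14908655, 36.7 kb upstream of the nearest ANKH start, with a −log10 q of 46.1, a fold over the local background of 17.8 and 45 overlapping tags at the summit (the summit pileup, recovered from the deposited values). The nearest start of any annotated gene was that of the pseudogene HNRNPKP5, and the nearest All gRNA peak began 6.12 kb away. The peak near KPNA3, a nuclear import adaptor, lay at chr13:49859665-49860005, 67.1 kb upstream. Its −log10 q was 39.98, its pileup reached 54, and an All gRNA peak stood 0.778 kb away. The peak near FOLR3, a secreted folate receptor, lay 13.4 kb downstream of the start, with a −log10 q of 39.0, the highest fold of all 5002 (18.9) and a pileup of 33. Its summit is a repeated stretch, whose central 31 bases occurred at 6705 places. The peak near FZD2, a Frizzled receptor for Wnt ligands, lay at chr17:44587452-44587787, 30.1 kb downstream. It had a −log10 q of 37.0 and 33 tags at the summit. Of these 4 peaks, that near FZD2 was the farthest from any All gRNA peak, at 29.9 kb.

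Several of the next 8 in strength lay close to a start. The peak 3.49 kb upstream of STIP1, a co-chaperone that links HSP70 and HSP90, had the highest pileup of all 5002, 84, but stood on a local background of 14.7 tags, so that its fold was 5.40. The peaks near MEX3B, an RNA-binding protein, and SLC1A7, a glutamate transporter, had a −log10 q of 31.8 and 30.4. Those near SUGCT, a mitochondrial CoA transferase, NXPH4, a neurexophilin, and ACVR2A, an activin receptor, had values of 29.4, 29.3 and 29.3. The ACVR2A peak was the most remote of the 20 strongest, 917 kb upstream at chr2:146927305-146927736, where the nearest start of any gene was that of the long noncoding RNA gene LINC01911. Peaks near SEPTIN1, a filament-forming GTPase, and IL1RAP, the shared subunit of interleukin 1 family receptors, followed with 29.2 and 28.7.

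The remaining 8 of the 20 strongest had a −log10 q from 26.8 to 28.5. In order they lay nearest to CLRN3, RHOU, AKAP17A, FAM124B, ZNF366, MON1B, LIMS2 and FOXP1. LIMS2 is a LIM-domain protein of focal adhesions and FOXP1 a forkhead transcription factor. The RHOU summit is another repeated stretch, since its central 31 bases occurred at 22 places. The peak near AKAP17A lay in the pseudoautosomal region of X. Across the 20, 11 summits were upstream and 9 downstream of the nearest protein-coding start, 6 were within 10 kb of it and 13 within 100 kb, and the closest was 2.46 kb from LIMS2. The promoter of the nearest gene, taken as 1000 bp either side of any start, had a peak in both libraries for 15 of the 20. It had one in neither library for FOLR3, SLC1A7, CLRN3 and ZNF366, and in No gRNA alone for FAM124B.

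Most of the 5002 peaks were weak. The median summit pileup was 10 (range 5 to 84), the median −log10 q 6.75 (1.87 to 46.1), the median fold 6.05 (1.92 to 18.9) and the median width 237 bp (200 to 966). Shared intergenic peaks had medians of 20 for pileup, 15.9 for −log10 q, 9.43 for fold and 353 bp for width. The shortest peak that either list held was 200 bp, and 21.1% of the No gRNA-only intergenic peaks had that width against 4.77% of shared ones. Of the 5002, 4073 (81.4%) had a −log10 q of at least 5, 1158 (23.2%) of at least 10, 106 (2.12%) of at least 20 and 7 (0.140%) of at least 30. Since absence from the other list was part of the rule, this difference in height is a description of how the regions were chosen.

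The share of intergenic No gRNA peaks without an All gRNA peak fell steeply with height. It was 67.3% (interval 64.0 to 70.5) at pileups of 7 or less, 46.4% (44.7 to 48.1) at 10 to 12, 16.4% (15.2 to 17.8) at 17 to 24 and 0.656% (0.398 to 1.08) above 40, where 15 of 2286 peaks were No gRNA-only. The same decline was seen in gene bodies, from 66.5% to 1.33%, and in promoters, from 62.5% to 0.783%. At pileups of 17 to 24 the promoter share, 21.9% (20.4 to 23.5), was above the intergenic one with intervals apart. The same held at 13 to 16, 36.7% (34.4 to 39.0) against 29.8% (28.1 to 31.6). It also held at 25 to 40, 9.38% (8.49 to 10.4) against 6.12% (5.26 to 7.11). In the other classes these intervals overlapped. The depth recovered from the lowest backgrounds of the lists was 0.743 times as high in All gRNA as in No gRNA, and its part in these absences was not tested.

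**Figure D1:**
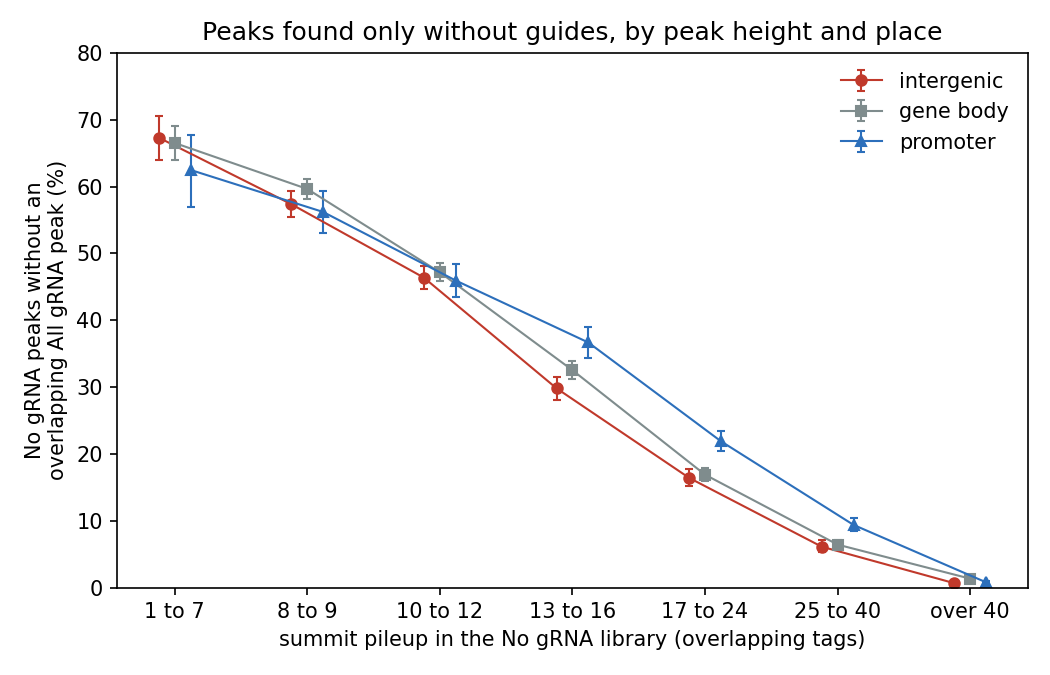
Share of No gRNA peaks without an overlapping All gRNA peak (y axis, percent) in 7 classes of No gRNA summit pileup (x axis, overlapping tags), for intergenic, gene body and promoter peaks; points are shares and bars 95% Wilson intervals. All 3 lines fall from above 60% at pileups of 7 or less to under 2% above 40, and at pileups of 7 or less the intergenic and promoter intervals (64.0 to 70.5 and 56.9 to 67.8) overlap.

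Because the All gRNA list gives no value where no peak was called, the All gRNA level at these sites could be bounded only from above. At the lowest background, up to 6 tags could stand in All gRNA without a call, given the weakest peak the list holds and a peak length of at least 200 bp, the shortest in either list. After scaling for depth, that limit over the No gRNA pileup had a median of 0.897 over the 5002 peaks, and it was under 1 for 3137 of them (62.7%). The upper end of its interval for counting error was under 1 for 64 peaks (1.28%), whose pileups were 21 to 54 and whose bounds were 0.245 to 0.573. Over all 16746 No gRNA-only peaks of any location the same count was 230 (1.37%). For the 5002, the count of 64 became 35 with the libraries scaled by their paired peaks. It became 569 where uncalled tags were limited to 1 below the call limit. Since the rule had selected these sites for a call in No gRNA and none in All gRNA, the bounds give only the highest All gRNA level that would have gone without a call. They were not adjusted for the number of sites and test no difference between conditions. The bound takes the All gRNA background to be the No gRNA one scaled by depth. Fewer cells with an open site and less access per cell cannot be told apart in such bulk data.

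Peaks of the other list often stood nearby. An All gRNA peak lay within 150 bp of 3.36% of the No gRNA-only intergenic peaks, within 1000 bp of 12.9%, within 10 kb of 50.5% and within 100 kb of 96.2%, with a median gap of 9.83 kb. Of the 647 within 1000 bp, 476 (73.6%) had an All gRNA neighbor that overlapped a different No gRNA peak. For All gRNA-only intergenic peaks, a No gRNA peak lay within 150 bp of 2.37% and within 1000 bp of 9.47%. Their shares within 10 kb and 100 kb were 41.1% and 92.9%, and their median gap was 13.8 kb. At the edge of the rule, peaks near ARF6, HS3ST3A1 and C9orf72 directly abutted an All gRNA peak with 0 bp between and were counted, while shared peaks near AADAT and MRPS30 overlapped one by 6 bp and that near PLCXD1 by 9 bp. On the distance to the nearest start of any gene, 3 peaks were just inside, at 1001, 1004 and 1009 bp. Their nearest protein-coding genes were ANKRD20A1, SPRN and TRABD2A, but the starts at these distances belonged to other genes. Peaks 1000 bp from a start of MAB21L3, 996 bp from TNNI2 and 996 bp from TRPC4AP were just outside.

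The 5002 summits lay at a median of 52.0 kb (interval 48.6 to 55.1) from the nearest start of a protein-coding gene, with quartiles at 17.5 and 174 kb. For shared intergenic peaks the median was 51.1 kb (49.6 to 53.1), which is within the interval, and for All gRNA-only intergenic peaks it was 64.6 kb (60.7 to 69.6), with an interval that lay apart. Distances of 1 to 10 kb were found for 769 of the 5002 (15.4%), 10 to 50 kb for 1689 (33.8%), 50 to 100 kb for 767 (15.3%), 100 to 500 kb for 1300 (26.0%) and more than 500 kb for 477 (9.54%). The farthest, 4.82 Mb, was on chromosome 21 with TPTE nearest. In 5 groups of like size from the strongest to the weakest −log10 q, the median distances were 45.4, 53.3, 58.2, 56.3 and 48.4 kb, and the intervals of the first (39.2 to 51.3) and the last (42.4 to 57.5) overlapped. Upstream summits made up 57.5% (56.2 to 58.9) of the 5002 and 58.7% (57.8 to 59.5) of shared ones.

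The nearest start of any gene was that of a protein-coding gene for 30.5% of the 5002, of a long noncoding RNA gene for 31.6% and of another type, such as a pseudogene or a small RNA gene, for 37.9%. The corresponding shares of shared peaks were 30.0%, 32.9% and 37.1%. By chromosome, the No gRNA-only share of intergenic peaks ran from 24.7% on chromosome 19 (70 of 283) to 33.9% on X (201 of 593, interval 30.2 to 37.8). Of the 23 chromosomes, X was the one whose interval lay above the share over all of them, 28.8%, and the other 22 intervals held it.

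In all, 3144 of 19970 protein-coding genes (15.7%) were nearest to at least 1 of the 5002. Of the 6181 genes nearest to any intergenic No gRNA peak, the 3144 were 50.9%. Most had a single such peak (2130 genes), 605 had 2, 206 had 3, 99 had 4 and 104 had 5 or more. Of the 3144 genes, 2108 were also nearest to a shared intergenic peak and 1508 to an All gRNA-only one, and 763 were nearest to neither. Their promoters had a peak in both libraries for 67.7% (66.0 to 69.3), in No gRNA alone for 2.96% (2.42 to 3.61) and in neither for 27.3%. Genes nearest to a shared intergenic peak but to none of the 5002 gave 67.6%, 3.13% (2.57 to 3.81) and 27.1%, so the promoters of the nearest genes did not differ in this respect beyond the intervals.

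The 10 genes nearest to the most No gRNA-only intergenic peaks had 8 to 15 of them each. SLITRK5, a neuronal transmembrane protein with leucine-rich repeats, had 15 of them, beside 12 shared and 7 All gRNA-only peaks, with a −log10 q from 4.45 to 12.6 and distances from 72.3 kb to 1.46 Mb. CDH2, which encodes the mesenchymal adhesion protein N-cadherin, had 12 beside 17 shared and 5 All gRNA-only. PCDH7, a protocadherin, had 12 beside 24 and 7. CDH9, a cadherin, had 9 beside 12 and 7, and ADGRL3, an adhesion G protein-coupled receptor of the latrophilin family, had 9 beside 13 and 15.

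ACVR2A had 10 beside 11 shared and 11 All gRNA-only peaks, and 1 of its 10 was the remote peak described above. MAP3K7, the kinase TAK1 of the TGF-beta and interleukin 1 pathways, had 10 beside 21 and 15. KLF4, a zinc-finger factor of epithelial differentiation, had 10 beside 21 and 5. XPNPEP1, an aminopeptidase, had 8 beside 9 and 4. TPTE, a testis-expressed phosphatase homolog next to the centromere of chromosome 21, had 10 beside 29 and 10, all more than 1.53 Mb away. The promoters of TPTE and CDH9 had no peak in either library, and those of the other 8 had one in both. The No gRNA-only share of intergenic peaks at these genes ran from 25.6% (14.6 to 41.1) at TPTE to 55.6% (37.3 to 72.4) at SLITRK5. The genes were selected on this count, so a share above 28.8% is a description.

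Neighboring peaks were common: another of the 5002 lay within 10 kb of 13.8%, within 50 kb of 37.2% and within 100 kb of 51.8%. Such neighbors were not counted for shared peaks. The densest 500 kb stretch, found after the values were seen, ran from the first summit to the last over chr20:50035053-50499637, with 12 No gRNA-only, 11 shared and 5 All gRNA-only intergenic peaks. Its No gRNA-only summits had SNAI1, CEBPB or PTPN1 nearest. SNAI1 is an EMT transcription factor, CEBPB a basic leucine zipper factor and PTPN1 a tyrosine phosphatase. Their −log10 q was 3.63 to 14.6 and their pileup 7 to 21. Other stretches held 9 each. The stretch beside KLF4 also held 16 shared and 3 All gRNA-only peaks, and that beside SLITRK5 held 7 and 2. A stretch beside TACR1, EVA1A and MRPL19 held 8 and 1. The stretches were selected on the No gRNA-only count, so that count is a description. Of the 3144 genes nearest to any of the 5002, 1508 were also nearest to an All gRNA-only intergenic peak, and the others were not. Among genes nearest to 3 or more of the 5002, 67 of 409 had no All gRNA-only intergenic peak. By number they began with TRIM43 (5 beside 1 shared intergenic peak), SUGCT (5 beside 12), LYZL1 (5 beside 5), TFAP2B (5 beside 6) and ZNF322 (5 beside 3). SHANK2 had 4 beside 1, and CCND1, the cell cycle regulator cyclin D1, had 4 beside 2. These genes were named after their values were seen.

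Within 1 Mb of the canonical start of ZEB1 on chromosome 10 (position 31319216), 9 of 28 intergenic No gRNA peaks (32.1%, interval 17.9 to 50.7) had no All gRNA counterpart, against 28.8% over all chromosomes. Of the 9, 6 lay upstream, all of them more than 500 kb away, and 3 downstream. The strongest was at chr10:30736846-30737367, 582 kb upstream of the ZEB1 start and 107 kb upstream of LYZL2, a lysozyme-like gene. It had a −log10 q of 25.7 and 27 tags at the summit. The nearest All gRNA peak was 9.64 kb away.

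The other 3 of that cluster lay 563, 543 and 535 kb upstream, with a −log10 q of 6.37, 16.8 and 7.55. They had LYZL2 nearest for the first and second and ZNF438, a zinc-finger gene, for the last. No All gRNA-only intergenic peak stood between 761 kb upstream and 327 kb downstream of the ZEB1 start. The remaining upstream pair lay 825 and 808 kb away near MAP3K8, the kinase TPL2, with values of 14.3 and 10.9, and All gRNA peaks were 307 and 57 bp from them. Downstream, the values were 4.15 at 264 kb, where ZEB1 itself was nearest, 7.45 at 450 kb near ARHGAP12 and 5.23 at 776 kb near KIF5B. Of the 9, the peak at 264 kb had the lowest pileup, 7.

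For 10 gene lists that fit the cells and the target, the share of genes with at least 1 No gRNA-only intergenic peak nearest was above the 15.7% of all protein-coding genes in each. Genes of these lists also had many shared peaks: the No gRNA-only share of their intergenic peaks had an interval that held 28.8% in all 10 lists.

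Of 9 EMT transcription factors, ZEB1, ZEB2, SNAI1 and TWIST2 had a No gRNA-only intergenic peak nearest, 5 of 23 intergenic peaks in all (21.7%, 9.66 to 41.9). The strongest 3 were weak, with a −log10 q of 6.17 near SNAI1 and 5.23 near both ZEB2 and TWIST2. The ZEB2 one lay 1.30 Mb upstream. Of 20 mesenchymal structural and matrix genes, 10 had one, with 28 of 80 intergenic peaks (35.0%, 25.5 to 45.9), 12 of them near CDH2. The strongest were near COL6A3, a collagen VI chain (21.0, at 65.0 kb), and SPARC, a matrix glycoprotein (18.2, at 8.39 kb). The same list had 20 All gRNA-only peaks.

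Of 24 epithelial genes, 5 had a No gRNA-only intergenic peak nearest, with 5 of 20 intergenic peaks (25.0%, 11.2 to 46.9), and the list had 10 All gRNA-only peaks. The peak near EHF, an epithelial ETS factor, lay 108 kb downstream with a −log10 q of 16.2. That near CLDN7, a tight junction protein, lay 8.36 kb upstream with a value of 8.77, and the CLDN7 promoter had a peak in All gRNA alone. That near KRT8, a simple epithelial keratin, had a value of 6.95 and an All gRNA peak 93 bp away.

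Of 18 TGF-beta pathway genes, 11 had such a peak, with 18 of 80 intergenic peaks (22.5%, 14.7 to 32.8) and 15 All gRNA-only ones. The strongest were 9.37 kb upstream of the inhibitor SMAD7 (13.4), 18.1 kb upstream of the coreceptor TGFBR3 (12.4) and 236 kb downstream of the ligand TGFB2 (11.7). Among 15 inflammatory cytokine genes, 6 had one, with 8 of 43 peaks (18.6%, 9.74 to 32.6). The chemokine gene CCL20 had one on each side, 9.04 kb upstream with a −log10 q of 18.2 and 9.68 kb downstream with 10.0, and CXCL3 had one with 10.0, at 0.152 kb from an All gRNA peak. Of 15 breast lineage genes, 5 had one, with 16 of 61 peaks (26.2%, 16.8 to 38.4) and 22 All gRNA-only peaks. Here the strongest were 861 kb downstream of the luminal factor GATA3 and 49.1 kb downstream of the receptor kinase KIT, both at 13.99, and 102 kb downstream of GATA3 at 12.6.

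The other lists gave few. Of 10 AP-1 genes, FOSL1 (9.76, 6.27 kb upstream) and FOSL2 (7.55, 36.2 kb upstream) had 1 each, 2 of 10 peaks. Of 12 TEAD and YAP genes, TEAD1 (12.6) and the YAP target ANKRD1 (8.28 and 6.37, one on either side of the start) had 3 of 20. Of 10 glucocorticoid response genes, the phosphatase gene DUSP1 (18.5, 63.7 kb downstream) and the Kruppel-like factor gene KLF9 (4.24 and 3.62) had 3 of 26 (11.5%, 4.00 to 29.0). Of 18 genes that the study had named for RNA or histone changes, a list not independent of these cells, 4 had one, with 6 of 23 peaks (26.1%, 12.5 to 46.5). By strength these began with EHF, the interleukin gene IL1B (5.46) and the catenin gene CTNNA3 (5.23). The IL1B peak had an All gRNA peak 0.167 kb away, and the CTNNA3 peak lay 969 kb downstream with a pileup of 8.

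Sequence had no part in the selection. Within 100 bp either side of the summit, the AP-1 motif TGACTCA was present on either strand in 1153 of the 5002 (23.1%, 21.9 to 24.2), against 3942 of 12358 shared intergenic peaks (31.9%, 31.1 to 32.7), 26.0% of All gRNA-only ones and 23.5% of all No gRNA peaks. Weighted to the pileups of the 5002, the shared share was 28.1%, so that the difference was −5.08 percentage points (−6.76 to −3.40). The No gRNA-only share was the lower in all 7 pileup classes, for example 16.3% against 25.9% at pileups of 7 or less and 23.8% against 36.1% at 25 to 40. The class above 40 held 15 of the 5002. Weighting by No gRNA pileup does not make the sets alike, since shared peaks were also selected for an All gRNA call. At pileups of 7 or less, paired shared peaks had a median log2 All gRNA over No gRNA pileup of 0.791 after scaling for depth. Above 40 it was −0.316. The part of this selection in the differences at like pileup, here and below, was not tested.

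The E-box CAGGTG was present in 590 (11.8%, 10.9 to 12.7), in 11.7% of shared peaks, in 17.0% (16.03 to 18.0) of All gRNA-only ones and in 11.6% of all No gRNA peaks. Against shared peaks of like pileup, where it was 13.3%, the difference was −1.52 points (−2.81 to −0.225). The No gRNA-only share was again lower in all 7 classes, though close in some, such as 11.8% against 12.0% at pileups of 10 to 12. The other E-box searched, CAGCTG, was present in 12.5% of the 5002, 12.6% of shared and 10.3% of All gRNA-only peaks. Its difference at like pileup, 0.209 points, had an interval from −1.07 to 1.49.

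The CTCF motif was present in 177 (3.54%, 3.06 to 4.09), in 2.48% (2.22 to 2.77) of shared peaks, in 2.39% of All gRNA-only ones and in 2.02% of all No gRNA peaks. At like pileup the shared share was 2.99% and the difference, 0.549 points, had an interval from −0.135 to 1.23. The strongest with a match, shown above, lay 5.68 kb from a start of ALDH3B2, an aldehyde dehydrogenase gene, with a −log10 q of 18.2. The C/EBP motif TTGCNNAA (12.5% against 13.8% of shared peaks at like pileup) had a difference of −1.31 points (−2.62 to −0.0118), lower in 5 of 7 classes. Of the 13 motifs searched, AP-1, CAGGTG and C/EBP were the ones with a difference interval below 0, and none had one above it. The intervals were not adjusted for the number of motifs, and those of CAGGTG and C/EBP ended close to 0.

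For TEAD (CATTCC) the share was 15.99% in the 5002, 17.2% in shared peaks and 14.6% in all No gRNA peaks. For RUNX (TGTGGTT) these were 6.38%, 7.05% and 5.69%, for FOX (TGTTTAC) 4.12%, 4.61% and 3.71% and for GRHL (AACNNGTT) 2.90%, 3.35% and 2.87%. The SP/KLF motif GGGCGG, common in promoters, was present in 5.64%, 7.53% and 19.3%, and the ETS motif CCGGAAG in 0.880%, 1.70% and 3.54%. The glucocorticoid receptor motif was present in 27 of the 5002 (0.540%) and the NFI motif in 2 (0.0400%), against 0.432% and 0.0413% of all No gRNA peaks. Each motif was counted on its own, and a window could hold several.

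**Figure D2:**
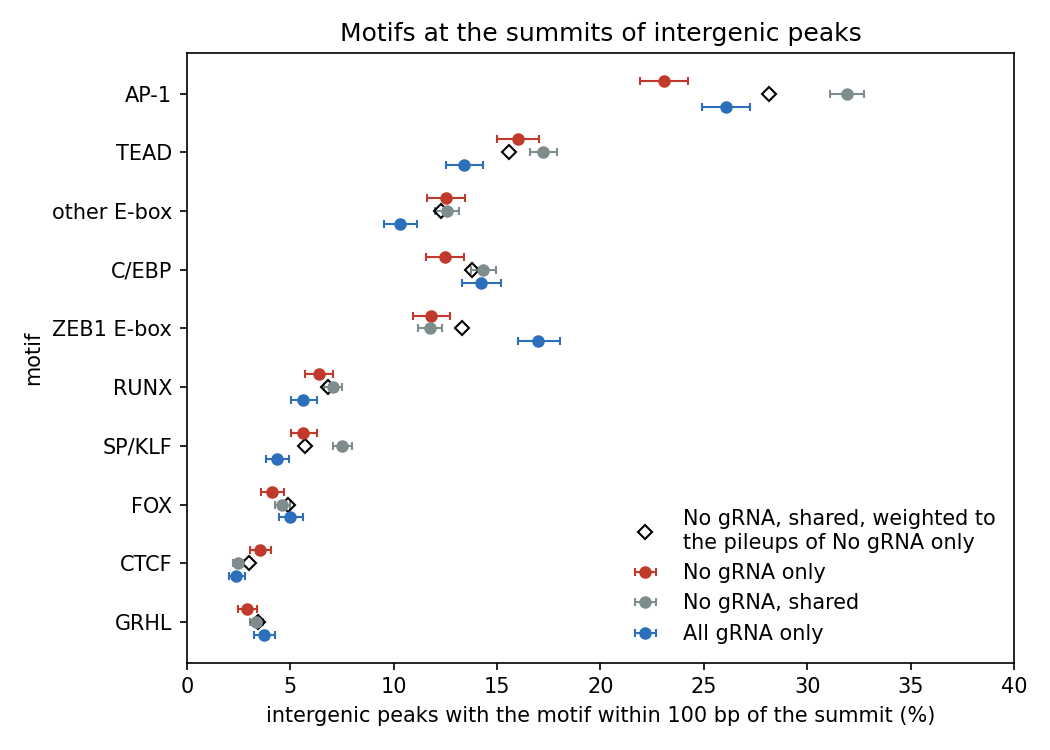
Percent of intergenic peaks with a motif within 100 bp of the summit (x axis) for the 10 motifs present in more than 1% of No gRNA-only peaks (y axis); filled points with 95% Wilson intervals are the 3 sets and open diamonds the shared peaks weighted to the pileups of the No gRNA-only ones. The widest gap is at AP-1, 23.1% against 31.9% of shared peaks, and for CAGGTG the All gRNA-only point stands apart at 17.0%.

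GC content over the same windows was alike, with medians of 44.8% in the 5002, 45.3% in shared and 44.3% in All gRNA-only peaks. The central 31 bases of the summit occurred at more than 1 place in 403 of the 5002 (8.06%, 7.33 to 8.84), in 7.06% of shared peaks (6.62 to 7.52) and in 9.91% (9.14 to 10.7) of All gRNA-only ones. At like pileup the shared share was 8.73%, and the difference of −0.671 points had an interval from −1.77 to 0.423. Of the 20 strongest, the summits near FOLR3 and RHOU were repeated. This count was added after the values were seen.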

How the data were processed

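ATAC-seq peaks of 1 No gRNA and 1 All gRNA library were used. The authors used fastp for trimming, bowtie2 for alignment to hg38, SAMtools to drop duplicates after mitochondrial and excluded-region reads, and MACS2 per library (stated extension 150 bp, no control stated). The shortest deposited peak was 200 bp, the length assumed for uncalled sites. Versions were not given in the sources used here. The deposited lists hold position and summit, a fold (ratio) over background, −log10 p, −log10 q and a score (not used).

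Summit pileup and background were solved from the deposited fold and −log10 p, giving whole pileups for 99.8% (No gRNA) and 99.9% (All gRNA) of peaks and for each of the 5002, where a whole pileup is one that returns the −log10 p within 0.005 plus 0.01% of its value. The files give no read totals; relative depth is the ratio of the lowest backgrounds, 0.652 and 0.484. Intervals are Wilson for shares, Clopper-Pearson for pileup ratios and order statistics for medians. Both ends of a fragment can be counted, so they are too narrow. Genes are GENCODE 44. Pileup recovery, gaps, nearest distances, the 50% overlap, the motif search and the count of repeated bases were tested on simulated data. Python 3.11.15, numpy 2.4.6, pandas 2.3.3 and scipy 1.17.1 were used.

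The regions and lists were chosen with earlier results of these data known. Named were the 20 strongest peaks, up to 3 per list, those within 1 Mb of ZEB1 and the 10 genes nearest to most. The named peak of 1 listed gene and the sequence of 1 of the 4 strongest peaks are not reported here. Alternatives were thresholds on −log10 q, other overlaps, gaps and start distances, the 50000 strongest peaks, canonical starts, another scaling and a narrower motif window.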

Additional observations from a re-analysis of the deposited data

How the results depend on the processing

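The alternatives covered counts, the median distance and motif shares of the 5002, not the differences from shared peaks. Of 48 values, 31 stayed within 1.5 times the count reported or, for medians and shares, within its 95% interval. At a −log10 q of at least 10, 1158 peaks remained with 1021 nearest genes, a median distance of 48547 bp, and AP-1, CAGGTG and CTCF shares of 25.6%, 9.50% and 4.32%. At a −log10 q of at least 5 the AP-1 share was 24.7%. With the 50000 strongest peaks of each list there were 3219 peaks, 25.2% with AP-1. The median distance was 61939.5 bp with starts over 4000 bp away, 69603 bp with canonical starts alone and 41022.5 bp to the edge of a gene body. Motif windows of 50 bp either side gave 10.7%, 5.80% and 1.04% for AP-1, CAGGTG and CTCF. The count of 64 peaks with an upper limit under 1 became 35 with libraries scaled by the median pileup ratio of paired peaks (0.690), and 569 where the most tags without a call was set 1 below the call limit, an alternative chosen after seeing the data. For an overlap of 50% of both peaks and for the strongest peaks this count was not run, since the limit on uncalled tags does not hold there. No paired analysis was possible because a group was a single library, which also meant that leaving out a replicate could not be tried. Low pileups, with a median of 10, limit what the bounds can say of most of the 5002.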
